A study of Mus musculus with 18 samples.

Results

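The collagen and laminin genes, the structural backbone of the extracellular matrix, were taken from the RNA of 18 mouse hippocampi by their symbols alone: every listed gene named Col or Lam with the numbering of a collagen chain or a laminin chain was kept. The rule gave 54 of 15329 listed genes, 43 for collagen chains and 11 for laminin chains, and it used no measured value. All 54 had a read in every library and all passed the filter of the test. Col10a1 and Col21a1 were the chains looked for but not among the listed genes. The mice were 8 to 10 weeks old C57BL/6J, either wild-type (WT) or knockout for *Ccny* (KO), the gene of cyclin Y. There were 3 mice in each of 6 groups, with 1 library per mouse: untrained mice of either genotype (WT_Basal and KO_Basal), mice that had learned the site of a hidden platform in a water maze (original learning, WT_OL and KO_OL), and mice that went on to reversal learning with the platform moved (WT_RL and KO_RL). The libraries were made from whole hippocampal tissue, so they mix neurons, glia, vessels and whatever meninges or choroid plexus came with the dissection. The comparisons asked how matrix genes stood after learning, after reversal, and between the genotypes in each state.

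Collagens are built of 3 chains wound into a helix. Fibrillar collagens (types I, III and V among them) form the fibrils of connective tissue, type IV collagens form the sheet of basement membranes, type VIII forms hexagonal networks, and fibril-associated collagens (types IX, XVI, XIX and others) sit on fibrils. Laminins join one alpha, one beta and one gamma chain and lay down the other basement membrane network. In the brain these genes are best known from vessel walls, meninges and choroid plexus, while a few collagens, such as Col19a1 and Col25a1, are made by neurons.

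The libraries held 29248557 to 37915576 reads on listed genes, so that 1 read was worth 0.0274 to 0.0333 CPM (reads scaled to library size). The values were deposited as log2(CPM + 1), fold changes below are differences of group means on that scale and understate changes of genes near 1 CPM, and an adjusted p is that of limma with Benjamini-Hochberg adjustment over all 15329 genes. *Ccny* was lower in KO than in WT mice in each state, with 92 ± 3.33 CPM (SD, n = 3) in KO_Basal against 155 ± 4.87 CPM (SD, n = 3) in WT_Basal (log2 fold change -0.75, adjusted p = 0.0121), and it was not at 0 in any KO library. The label of the tissue was met: all 10 listed markers of hippocampal neurons were present and summed to 5488 to 7389 CPM per library. The library of WT_OL mouse 2 stood farthest from the others (median correlation with the other libraries 0.983, against 0.987 to 0.993 for the rest). The libraries of WT_RL mice 1 and 3 were at the ends of the range of choroid plexus epithelial markers, whose mean over 16 genes was 1.97 and 6.82 on the log2(CPM + 1) scale.

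Per kb of the longest annotated transcript, Col9a3, a chain of fibril-associated collagen IX, had the highest level of the 54 genes with 13.1 ± 7.37 CPM per kb (SD over 18 libraries), and its spread was wide. Col25a1, a transmembrane collagen of neurons, came next with 11.6 ± 2.56 CPM per kb, a difference smaller than the spread of Col9a3. The basement membrane chains Col4a2 (7.38 ± 1.12 CPM per kb) and Lamb1 (7.30 ± 1.76 CPM per kb) followed and differed from each other by less than their spread. Col6a1 was the highest of the beaded-filament class (6.46 ± 2.68 CPM per kb), Lamc1 of the laminin gamma chains (5.70 ± 1.01 CPM per kb), Col11a2 of the fibrillar collagens (4.56 ± 0.720 CPM per kb), Col8a2 of the short-chain collagens (3.51 ± 2.70 CPM per kb), Lama2 of the laminin alpha chains (2.06 ± 0.244 CPM per kb) and Col18a1 of the multiplexins (1.56 ± 0.486 CPM per kb). Col6a6 was the lowest at 0.0465 ± 0.0215 CPM per kb. Of the 54 genes, 20 had a mean above 10 CPM, 29 lay between 1 and 10 CPM and 5 were under 1 CPM.

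The genes also differed in how much they varied over the 18 libraries, a spread that includes differences between the 6 groups. Lama2 and Col4a1 varied least, with a highest library 1.44 and 1.61 times the lowest. Col8a1 varied 36-fold and Col8a2 19.8-fold, both at means above 15 CPM, where counting error is small. Col17a1, Col24a1 and Col6a4 had wider ratios still, but with libraries at under 0.1 CPM, which is only a few reads.

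**Figure D1:**
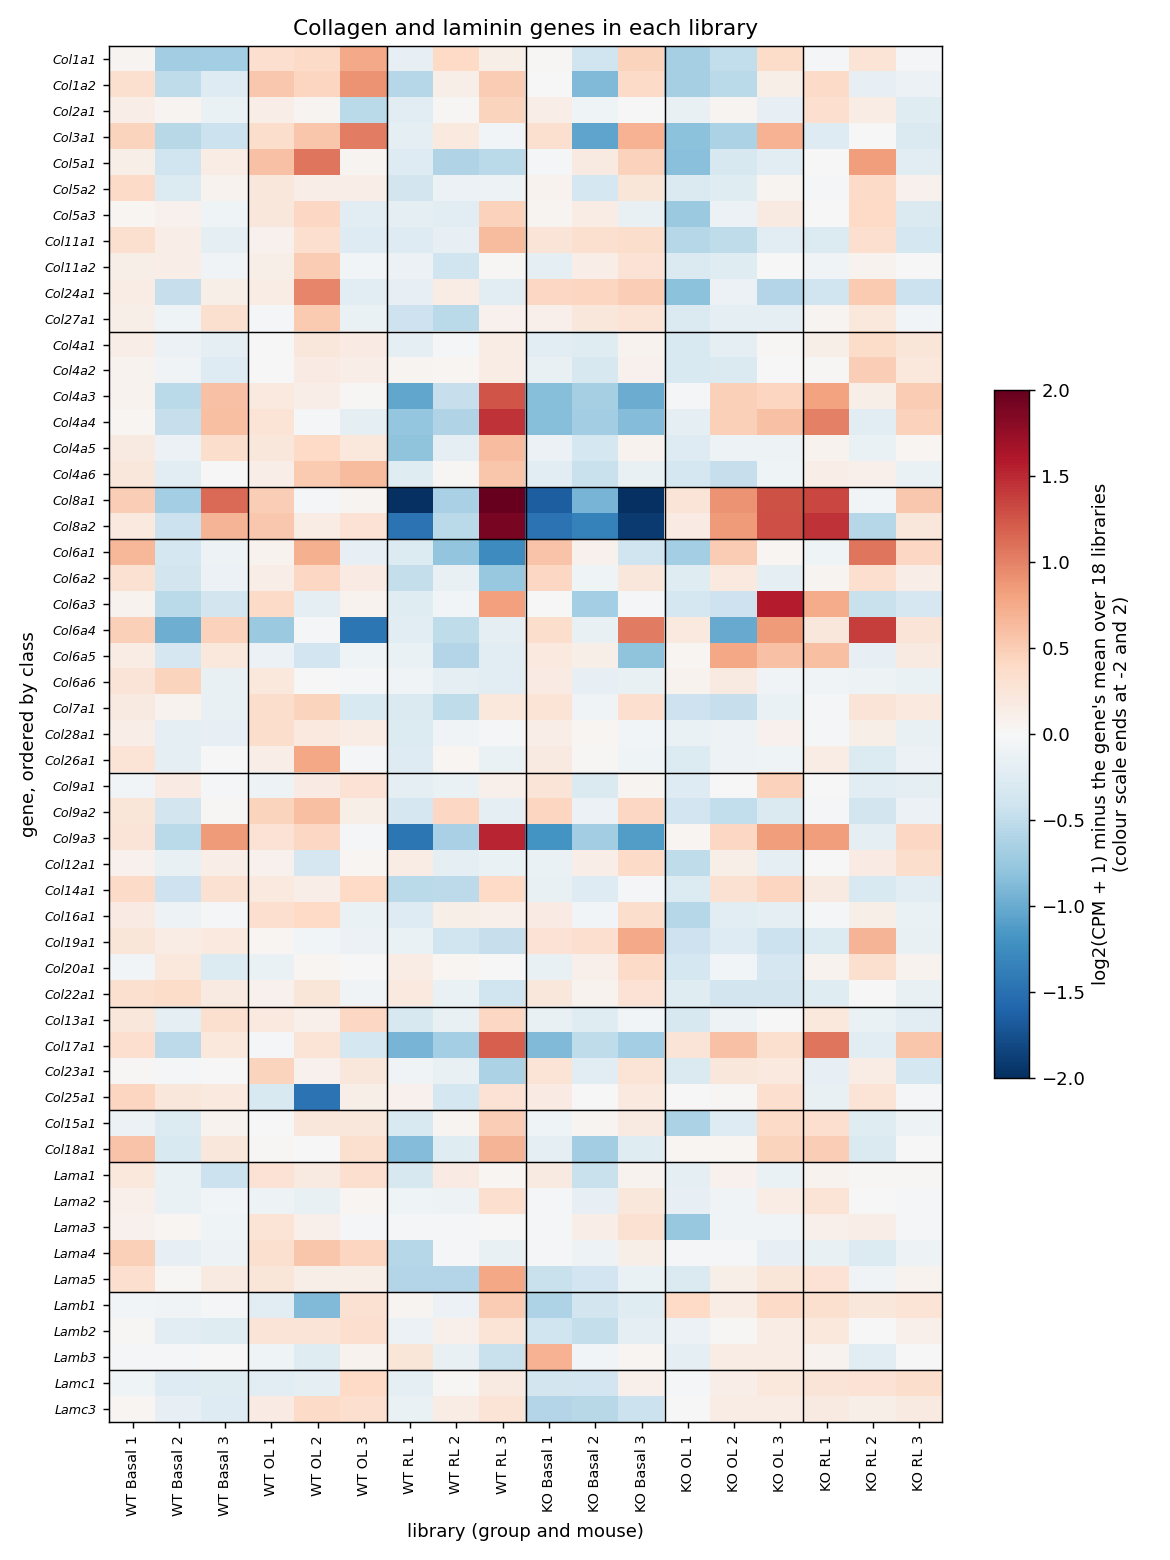
Heat map of 53 of the 54 genes (rows, by class) in 18 libraries (columns, by group and mouse); colour is log2(CPM + 1) minus the mean of the gene over the libraries, cut at -2 and 2. Col8a1, Col8a2, Col9a3, Col4a3, Col4a4 and Col17a1 share a pattern, low in KO_Basal and in WT_RL mouse 1 and high in WT_RL mouse 3.

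The relation between chains over the 18 libraries was looked at in 16 pairs, most of them chains of 1 collagen or laminin molecule. Of these pairs, Col4a3 and Col4a4 were the closest (Pearson r = 0.97, Spearman rho = 0.96), then Col8a1 and Col8a2 (r = 0.97, rho = 0.97), Col4a1 and Col4a2 (r = 0.91, rho = 0.92), Col3a1 and Col1a1 (r = 0.88, rho = 0.89), Col1a1 and Col1a2 (r = 0.81, rho = 0.79), and Col6a1 and Col6a2 (r = 0.81, rho = 0.77). For the first 4 of these the permutation p of r, adjusted over 16 pairs with both measures, was 4.57e-05 each, at an unadjusted p of 1e-05 that is the smallest 100000 permutations can give; it was 0.000192 for Col1a1 and Col1a2 and 0.000178 for Col6a1 and Col6a2. With group means removed, r was 0.96, 0.96, 0.88, 0.94, 0.78 and 0.71 in the same order, so the pairs also moved together among mice of 1 group. Without the 2 libraries farthest from the median of the first gene, r was 0.97, 0.96, 0.87, 0.88, 0.83 and 0.70. The laminin chains Lamb1 and Lamc1 (r = 0.71, rho = 0.70, 0.72 without the 2 farthest libraries, adjusted permutation p = 0.00174) and Lama5 and Lamb2 (r = 0.58, rho = 0.60, 0.67 without the 2 farthest, adjusted permutation p = 0.0141) were looser. Col4a5 and Col4a6, which also lie head to head, had a lower r than the other type IV pairs (r = 0.72, rho = 0.72, 0.73 without the 2 farthest, adjusted permutation p = 0.00174). The fibrillar pairs Col5a1 and Col5a2 (r = 0.65, rho = 0.67, 0.61 without the 2 farthest, adjusted permutation p = 0.00574) and Col11a1 and Col11a2 (r = 0.64, rho = 0.69, 0.65 without the 2 farthest, adjusted permutation p = 0.0062) were at a like level, as were Lamb2 and Lamc1 (r = 0.65, rho = 0.62, 0.46 without the 2 farthest, adjusted permutation p = 0.0062). Col9a1 and Col9a2 (r = 0.20, rho = 0.28, 0.40 without the 2 farthest, adjusted permutation p = 0.464) and Lama4 and Lamb1 (r = -0.40, rho = -0.40, -0.13 without the 2 farthest, adjusted permutation p = 0.127) did not pass. Col9a2 and Col9a3, chains of the same fibril-associated collagen, showed no such relation (r = -0.16, rho = -0.08, -0.30 without the 2 farthest, adjusted permutation p = 0.555), and neither did Col6a2 and Col6a3 (r = -0.21, rho = -0.01, -0.05 without the 2 farthest, adjusted permutation p = 0.464).

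Both of the close type IV pairs lie head to head, on opposite strands with their starts side by side. Col4a4 (chr1:82448423-82586849, minus strand) and Col4a3 (chr1:82586921-82722059, plus strand) start 71 bases apart in GENCODE M21 on GRCm38, and Col4a1 (chr8:11198423-11312826, minus strand) and Col4a2 (chr8:11312805-11449287, plus strand) overlap by 22 bases at their starts. The bases between the starts of Col4a4 and Col4a3 are shown because both genes share them as their upstream sequence. They are from the RefSeq promoter table (GRCm38.p6), read on the plus strand, at chr1:82586850-82586920, and all are in capitals.

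Col4a4 and Col4a3: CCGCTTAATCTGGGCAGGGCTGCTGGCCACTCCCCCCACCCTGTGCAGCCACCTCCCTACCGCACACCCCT

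Col8a1 (chr16:57624258-57754737, minus strand) and Col8a2 (chr4:126286793-126314330, plus strand) are on different chromosomes and moved together as closely. The first 250 bases of each promoter window are shown, on the strand of the gene, at chr16:57754738-57754987 and chr4:126286544-126286793 of GRCm38.p6. Capitals mark the GC box, the letters GGGCGG on either strand, which occurs 4 times in each window, with overlapping matches counted.

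Col8a1: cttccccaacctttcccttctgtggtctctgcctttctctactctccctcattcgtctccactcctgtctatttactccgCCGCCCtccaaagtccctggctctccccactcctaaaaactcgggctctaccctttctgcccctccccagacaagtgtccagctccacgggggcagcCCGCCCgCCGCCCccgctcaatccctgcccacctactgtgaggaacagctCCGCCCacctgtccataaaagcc

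Col8a2: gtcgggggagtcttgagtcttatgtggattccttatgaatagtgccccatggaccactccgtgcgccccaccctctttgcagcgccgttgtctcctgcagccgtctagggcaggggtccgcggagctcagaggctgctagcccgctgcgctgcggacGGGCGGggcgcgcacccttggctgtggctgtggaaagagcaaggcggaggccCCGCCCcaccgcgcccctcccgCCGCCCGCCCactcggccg

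The GC box was present in 26 of 43 promoter windows of the 39 genes that the table holds (60.5%), against 35.7% of all 32851 windows of 300 bases. The CCAAT box (CCAAT) was in 14 of 43 (32.6% against 37.4%), the TATA box (TATAAA) in 4 (9.30% against 13.6%), the core letters TAATCC bound by OTX factors in 1 (2.33% against 7.06%), and the AP-1 letters TGANTCA in 1 (2.33% against 7.81%), each counted on both strands. The 32851 windows are not limited to the listed genes, and some of the 39 genes have more than 1 window, so the 2 sets are unlike. A match of letters is a description of the window only.

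After original learning, 4 matrix genes rose in WT mice and none fell. Lamc3 and Lamb2, both laminin chains, and Col1a1, a chain of collagen I, were among them. Thus 4 of 54 genes (7.41%) had an adjusted p under 0.05 in WT_OL against WT_Basal, where 9.5% of all genes did; 3.88% of all genes rose and 5.62% fell. The median log2 fold change of the 54 genes was 0.13, against -0.00025 for all genes, and 37 of 54 were above 0.

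Col1a1 (chr11:94936224-94953042, plus strand) measured 11.7, 6.53 and 6.59 CPM in WT_Basal and 14.3, 14.9 and 19.5 CPM in WT_OL. Every WT_OL mouse was above every WT_Basal mouse, with means of 8.26 ± 2.94 CPM (SD, n = 3) and 16.3 ± 2.84 CPM (SD, n = 3) (log2 fold change 0.93 ± 0.27, where ± is the SE, adjusted p = 0.0381 by limma). The call held in 1 of the 6 fits that left out 1 of these libraries, with adjusted p values up to 0.15 by limma.

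Lamb2 (chr9:108479736-108490530, plus strand), a beta chain of vascular and synaptic laminins, went from 35, 29.7 and 29 CPM to 41.6, 41.4 and 43.8 CPM (log2 fold change 0.43 ± 0.11, adjusted p = 0.0192 by limma). Lamc3 (chr2:31887291-31946539, plus strand), a gamma chain, went from 8.26, 7.09 and 6.56 CPM to 9.11, 10.9 and 10.5 CPM (log2 fold change 0.43 ± 0.11, adjusted p = 0.0226 by limma). Neither pair of groups overlapped, and the changes were smaller and tighter than that of Col1a1. With 1 of these libraries left out, the call of Lamb2 held in 4 of 6 fits and that of Lamc3 in 3 of 6. The adjusted p values ran up to 0.093 for Lamb2 and 0.111 for Lamc3 by limma. Exons of Lamc3 overlap those of Gm13441 on the other strand, and the strand setting of the counting was not given in the sources used here, so reads of the overlapping genes cannot be told apart.

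By a looser rule, a change beyond 1.5-fold with an unadjusted p under 0.05, 5 of the 54 genes passed in this comparison, where 1.8% of all genes did. Besides Col1a1 they included Col1a2, the second chain of collagen I (28.2, 15.5 and 18.6 CPM in WT_Basal and 33.2, 30.6 and 42.7 CPM in WT_OL, log2 fold change 0.78, adjusted p = 0.138 by limma), Col5a1, which nucleates collagen I fibrils (log2 fold change 0.62, adjusted p = 0.162 by limma), and Col25a1. Col25a1 was lower, with 102, 87.8 and 85.8 CPM in WT_Basal and 60.7, 26.3 and 81.9 CPM in WT_OL (log2 fold change -0.83, adjusted p = 0.0683 by limma). All WT_OL mice were below the WT_Basal mice, and WT_OL mouse 2 was far below the rest of its group. It was also the highest WT_OL mouse for Col5a1. Without it the log2 fold change of Col25a1 was -0.37 and that of Col5a1 0.37. The count of calls by adjusted p was 0 without WT_Basal mouse 2, 1 without WT_Basal mouse 3, 2 without WT_OL mouse 1 and 1 without WT_OL mouse 2, and it was 0 in a fit of these 2 groups alone. By the looser rule the count was 3 without WT_OL mouse 2.

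Markers of other cell types also differed between these groups. The 16 markers of fibroblasts of the meninges and vessels, which include no collagen or laminin gene, summed to 278 to 429 CPM in WT_Basal and 405 to 454 CPM in WT_OL, ranges that overlap, and 2 of them (Slc13a3 and Gjb2) rose by adjusted p. The 8 markers of pericytes summed to 160.0 to 177 CPM and 184 to 218 CPM, without overlap, and Pdgfrb rose among them. The 12 endothelial markers summed to 297 to 314 CPM and 305 to 354 CPM, with overlap, and Flt1 rose. Over the 18 libraries Col1a1 had r = 0.61 with the pericyte markers (rho = 0.63, 0.68 without the 2 farthest, adjusted permutation p = 0.05) and r = 0.54 with the fibroblast markers (rho = 0.52, 0.60 without the 2 farthest, adjusted permutation p = 0.115). In such bulk samples more cells of a type and more RNA per cell cannot be told apart. The part of these markers in the change of Col1a1 and Col1a2 was not tested.

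In KO mice, original learning went with changes in both directions: 5 matrix genes rose (Col8a1, Col8a2, Lamb1, Lamb2 and Lamc3) and 6 fell (Col24a1, Col19a1, Col11a1, Col9a2, Col22a1 and Col16a1). The laminin chains that passed rose and, apart from type VIII, the collagens that passed fell. That split held only among the genes that passed. Col4a3, Col4a4, Col9a3, Col17a1 and Col6a5 were higher past 1.5-fold with an unadjusted p under 0.05 by limma. Of 5 laminin alpha chains, 4 were below 0. The 11 genes are 20.4% of the 54, against 23.5% of all genes called in KO_OL against KO_Basal, with 11.2% of all genes higher and 12.3% lower. The median log2 fold change of the 54 genes was -0.08, against -0.0073 for all genes.

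Lamb1 (chr12:31265234-31329644, plus strand), the beta chain of laminin-111 and laminin-411, measured 26.4, 31.6 and 34.4 CPM in KO_Basal and 54.2, 45.5 and 53.8 CPM in KO_OL, with no overlap (log2 fold change 0.72 ± 0.21, adjusted p = 0.0224 by limma). Lamb2 went from 25.8, 24.6 and 30.2 CPM to 31.8, 34.9 and 38.3 CPM (log2 fold change 0.37 ± 0.11, adjusted p = 0.02 by limma). Lamc3 had the lowest adjusted p of the 54 genes, 0.001 by limma, with 5.02, 5.19 and 5.73 CPM in KO_Basal and 8.00, 9.05 and 8.97 CPM in KO_OL (log2 fold change 0.62 ± 0.11). Lamb2 and Lamc3 thus rose in both genotypes, while Lamb1 measured 39.5, 38.8 and 39.8 CPM in WT_Basal and 35.1, 21.7 and 51.1 CPM in WT_OL, with the low value again in WT_OL mouse 2.

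Among the genes that fell, Col19a1 (chr1:24261890-24587472, minus strand), a fibril-associated collagen made by hippocampal interneurons, measured 18, 18.7 and 25.5 CPM in KO_Basal and 10.6, 12 and 10.5 CPM in KO_OL. The groups did not overlap (log2 fold change -0.84 ± 0.19, adjusted p = 0.0045 by limma). In WT mice it was also lower after learning in every mouse, 17.4, 16.4 and 16.8 CPM against 15.1, 14 and 13.3 CPM, but did not pass (adjusted p = 0.449 by limma).

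Col11a1, a fibrillar collagen, went from 8.68, 9.15 and 9.27 CPM to 4.45, 4.66 and 5.97 CPM (log2 fold change -0.74, adjusted p = 0.0267 by limma). Col9a2, a chain of collagen IX, went from 8.39, 5.44 and 8.27 CPM to 4.32, 3.95 and 4.68 CPM (log2 fold change -0.63, adjusted p = 0.0333 by limma). Col16a1, a fibril-associated collagen, went from 12.5, 10.5 and 14.3 CPM to 7.05, 9.20 and 9.48 CPM (log2 fold change -0.49, adjusted p = 0.0318 by limma). In all 3 genes every KO_OL mouse was below every KO_Basal mouse.

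Col22a1, a collagen of tissue junctions, was low throughout and fell from 2.83, 2.44 and 2.96 CPM to 1.75, 1.51 and 1.51 CPM (log2 fold change -0.53, adjusted p = 0.00998 by limma). Its exons overlap those of Gm16308 on the other strand. Col24a1, a fibrillar collagen, went from 1.43, 1.46 and 1.56 CPM to 0.0307, 0.679 and 0.224 CPM (adjusted p = 0.0257 by limma). At such levels its fold change depended on the scale: the log2 value was -0.95 with 1 CPM added and -2.30 with 0.1 CPM added. With values under 1 CPM raised to a floor, where every KO_OL mouse lies, it was -0.31. Over the other settings the adjusted p of Col24a1 ran up to 0.213 by limma. The 16 fibroblast markers summed to 216 to 318 CPM in KO_Basal and 270.1 to 310.5 CPM in KO_OL, and 4 of them (Omd, Slc6a13, Aldh1a2 and Foxc1) fell by adjusted p. Without Igf2, the highest of them, the sums were 149 to 226 CPM and 124 to 149.6 CPM. Their mean ran from 2.96 to 3.50 in KO_Basal and from 2.86 to 2.94 in KO_OL on the log2 scale, without overlap, and 14 of 16 had a log2 fold change below 0 (median -0.48). In the same comparison, where 23.5% of all genes were called, 3 of 12 endothelial markers (Cldn5, Erg and Slco1a4) fell by adjusted p. Of 8 pericyte markers 2 (Atp13a5 and Higd1b) fell, and of 10 neuronal markers 2 (Fibcd1 and Slc17a7) rose. The part of all these markers in the changes of the matrix genes was not tested.

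After reversal learning, 9 matrix genes of KO mice stood above KO_Basal and none was lower: the laminin chains Lamb1, Lamb2, Lamc1 and Lamc3, the type IV chains Col4a1, Col4a2 and Col4a3, and Col8a1 and Col8a2. All 9 encode network collagens or laminins, and no fibrillar collagen passed. That holds for the adjusted threshold only. The fibril-associated Col9a3 (log2 fold change 1.37) and the transmembrane Col17a1 (1.16) were higher with an unadjusted p under 0.05 by limma. The 9 genes called are 16.7% of the 54 genes, against 23.6% of all genes called, with 11.6% of all genes higher and 12% lower. The comparison shares the 3 KO_Basal mice with the one after original learning. The median log2 fold change of the 54 genes was 0.04, against -0.0034 for all genes.

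Lamc3 measured 9.22, 8.83 and 9.24 CPM in KO_RL (log2 fold change 0.68 ± 0.11 against KO_Basal, adjusted p = 0.000512 by limma) and Lamb2 40.3, 34.7 and 37.1 CPM (log2 fold change 0.46 ± 0.11, adjusted p = 0.00565 by limma). Lamb1 measured 51.5, 47.9 and 49.8 CPM (log2 fold change 0.68 ± 0.21, adjusted p = 0.0294 by limma). Lamc1, the gamma chain of most laminins, went from 32.9, 32.7 and 45.8 CPM to 51.3, 52.4 and 55 CPM (log2 fold change 0.52 ± 0.15, adjusted p = 0.0212 by limma). In none of the 4 laminin genes did KO_RL overlap KO_Basal.

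Col4a1 and Col4a2, the chains of the common basement membrane collagen, rose by similar amounts. Col4a1 went from 38.2, 37.3 and 46.2 CPM to 48.2, 57 and 52.3 CPM (log2 fold change 0.37 ± 0.12, adjusted p = 0.0303 by limma), with no overlap. Col4a2 went from 42.2, 37.4 and 50.3 CPM to 47.9, 66.3 and 54.8 CPM (log2 fold change 0.37 ± 0.13, adjusted p = 0.0439 by limma), and its groups overlapped. Their first exons overlap on opposite strands. Col22a1 (log2 fold change -0.32) and Lama4 (-0.17) had every KO_RL mouse below every KO_Basal mouse but did not pass (adjusted p = 0.0923 and 0.464 by limma). In this comparison, where 23.6% of all genes were called, 3 of 12 endothelial markers (Slco1a4, Erg and Tek) fell by adjusted p and none rose. Of 10 neuronal markers 2 (Fibcd1 and Slc17a7) rose, of 8 pericyte markers 1 (Abcc9) rose, and of 16 fibroblast markers 1 (Dcn) fell. The part of these markers in the rise of the laminin and type IV genes was not tested.

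The counts of calls in KO mice moved with single libraries. For original learning the 11 became 5 without KO_Basal mouse 1, 7 without KO_Basal mouse 2 or 3, and 6 without KO_OL mouse 1 or 3, and it was 19 in a fit of the 2 groups alone. For reversal learning the 9 became 2 without KO_Basal mouse 1, KO_Basal mouse 2 or KO_RL mouse 3, and 5 without KO_RL mouse 1. Lamc3 kept an adjusted p under 0.05 by limma without any one library in both comparisons, as did Col19a1 and Col22a1 after original learning and Lamb2 after reversal learning. After original learning Col11a1, Col24a1 and Col9a2 each kept it in 1 of 6 such fits, Col8a1 and Lamb1 in 2, Col16a1 and Lamb2 in 3 and Col8a2 in 5. After reversal learning Col4a3, Col8a2 and Lamb1 kept it in 1 of 6, Col4a1 and Col4a2 in 2 and Lamc1 in 3. The call of Col8a1 after reversal learning was lost without any one of the 6 libraries compared, with log2 fold changes of 1.86 to 2.57 and adjusted p values of 0.0524 to 0.149 by limma.

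**Figure D2:**
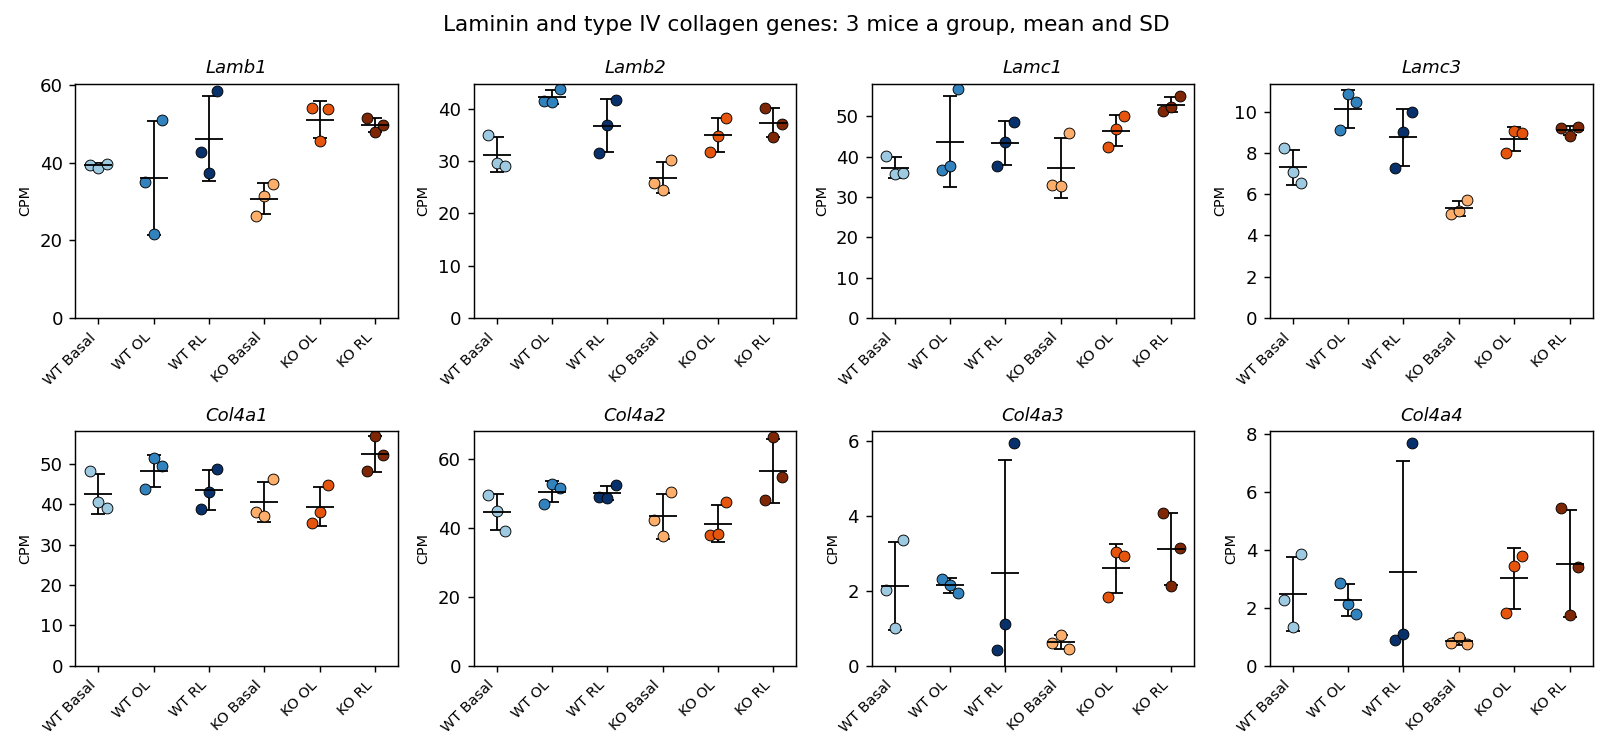
CPM of 6 laminin and type IV collagen genes and of Col4a3 and Col4a4 in each mouse (points), with the group mean and SD (3 mice a group). Lamc3 in the KO_Basal mice lies below all KO_OL and KO_RL mice.

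**Figure D3:**
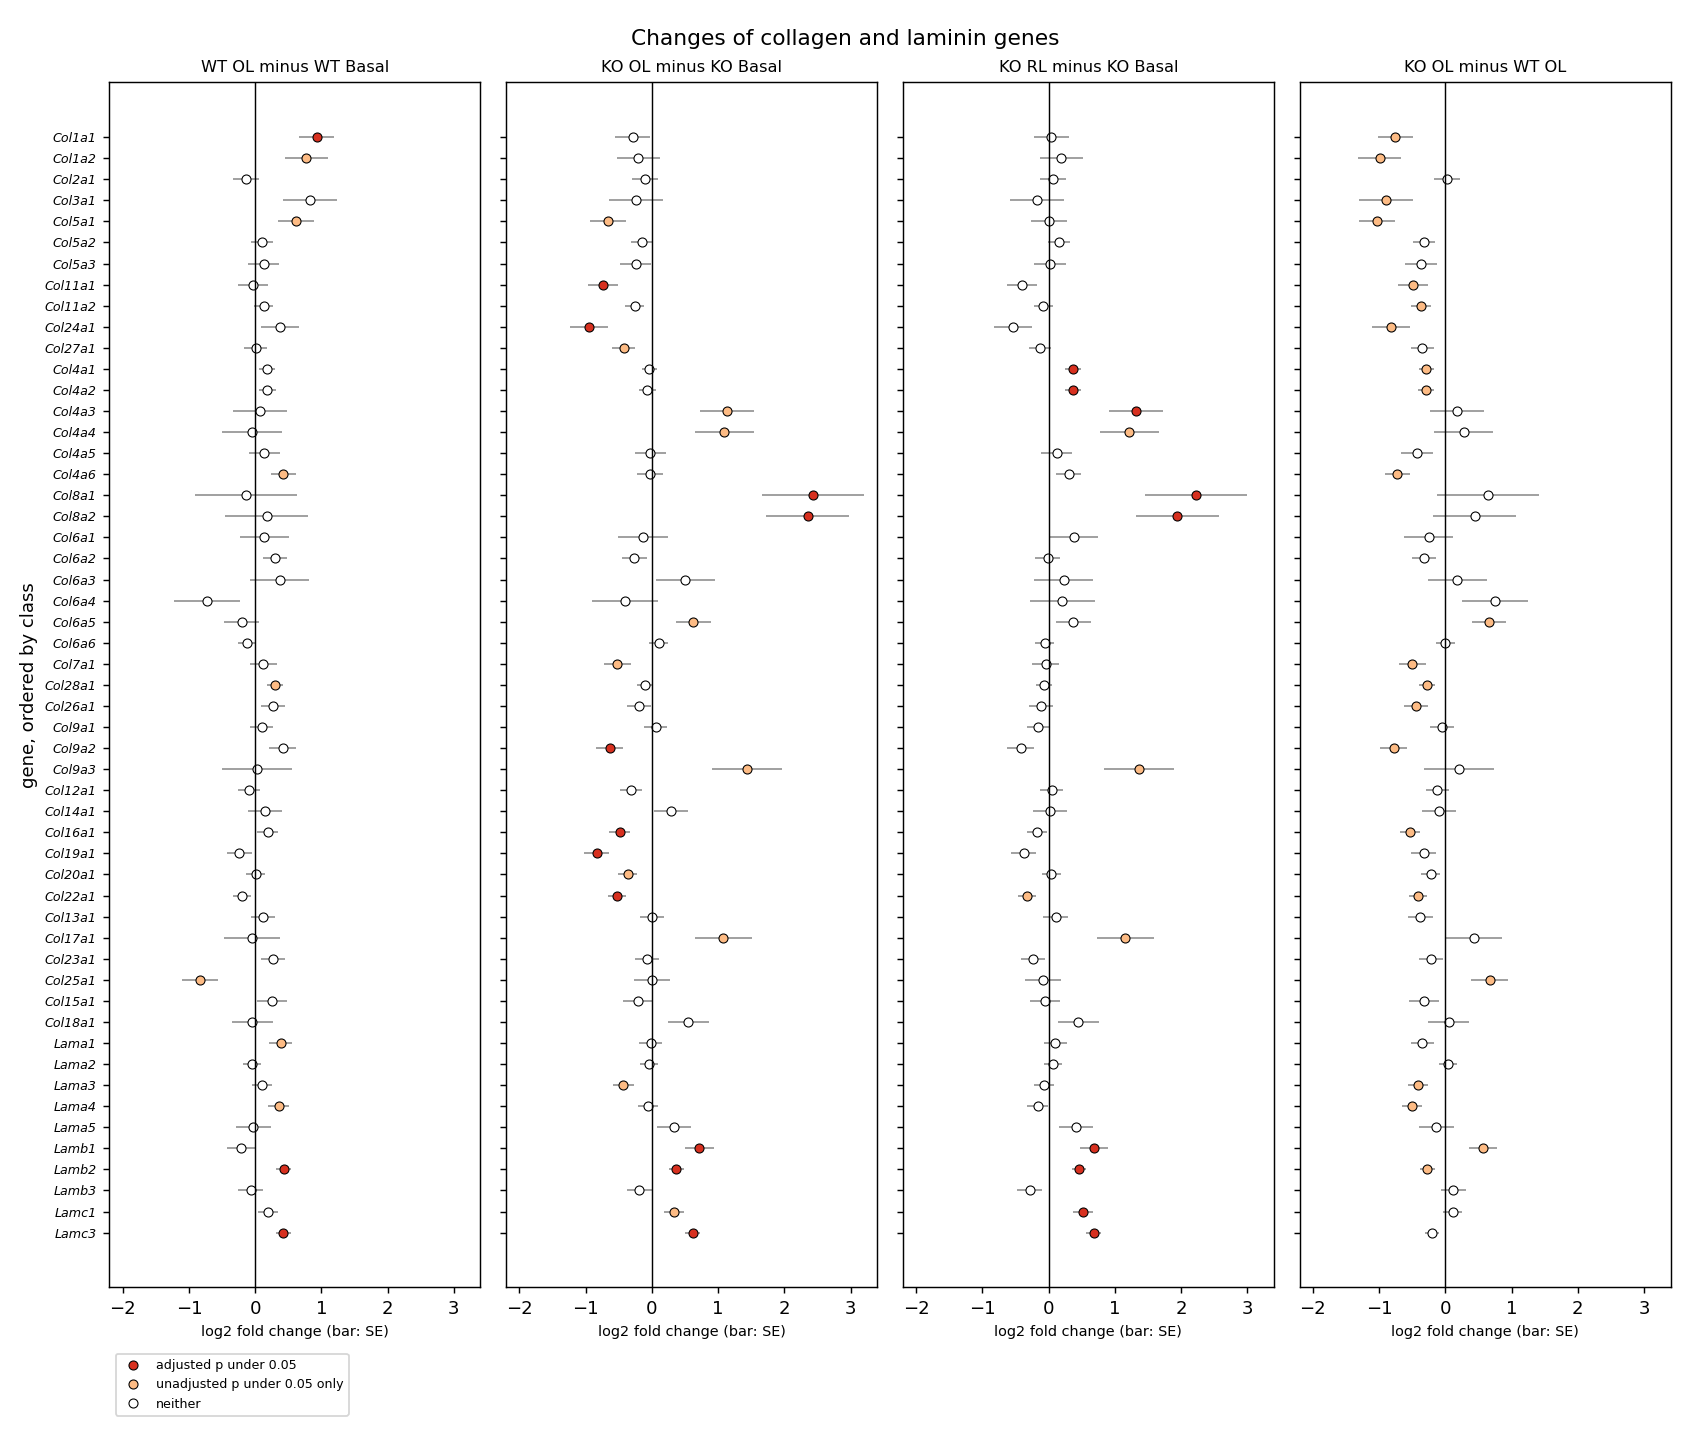
Log2 fold change of 53 of the 54 genes (points, with SE as bars) in 4 comparisons; red points have an adjusted p under 0.05, orange points an unadjusted p under 0.05 only. The red points number 3, 11, 9 and 0 from left to right.

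The largest changes of all belonged to Col8a1 and Col8a2, the chains of type VIII collagen, and they ran with Col9a3, Col4a3, Col4a4 and Col17a1. Col8a1 measured 16.5, 6.76 and 26.4 CPM in WT_Basal and 2.96, 5.54 and 1.56 CPM in KO_Basal, every untrained KO mouse below every untrained WT mouse. Col8a2 measured 13.6, 8.43 and 19.4 CPM and 3.56, 3.96 and 2.34 CPM, again without overlap. After learning all trained KO mice were above all untrained ones, with 13.9, 22.2 and 29 CPM of Col8a1 in KO_OL and 30.4, 11 and 17.1 CPM in KO_RL.

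In KO_OL against KO_Basal, Col8a1 had a log2 fold change of 2.43 ± 0.77 (adjusted p = 0.0312 by limma) and Col8a2 of 2.35 ± 0.63 (adjusted p = 0.0134 by limma). In KO_RL against KO_Basal the values were 2.23 ± 0.77 (adjusted p = 0.0463 by limma) and 1.95 ± 0.63 (adjusted p = 0.035 by limma). Col4a3, a chain of the specialised type IV network, had 0.604, 0.823 and 0.456 CPM in KO_Basal and 4.07, 2.14 and 3.14 CPM in KO_RL (log2 fold change 1.32 ± 0.41, adjusted p = 0.0289 by limma). Its exons overlap those of C430014B12Rik on the other strand. Col9a3 was 14.4, 20.8 and 15.3 CPM in KO_Basal and 35.5, 46 and 62.2 CPM in KO_OL (log2 fold change 1.44, adjusted p = 0.0594 by limma), and its exons overlap those of Tcfl5 on the other strand.

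Between untrained mice, KO_Basal against WT_Basal, limma called none of the 54 genes (0.0196% of all genes were called), and 5 had an unadjusted p under 0.05, where 4% of all genes did. By the rule of 1.5-fold with an unadjusted p under 0.05, 4 genes passed and all were lower, against 0.783% of all genes and 0.639% in that direction. They were Col8a1 (log2 fold change -1.94 ± 0.77), Col8a2 (-1.74 ± 0.63), Col9a3 (-1.20 ± 0.53) and Col4a3 (-0.88 ± 0.41), each at an adjusted p of 0.994 by limma. The gene with an unadjusted p under 0.05 but a smaller difference was Lamc3 (log2 fold change -0.39). The count was 2 without WT_Basal mouse 1, 1 without WT_Basal mouse 3, 2 without KO_Basal mouse 1 and 1 without KO_Basal mouse 3, and limma voom on the recovered reads gave 2. On the other side, Col24a1 and Col19a1 were higher in every KO_Basal mouse than in any WT_Basal mouse (log2 fold changes 0.50 and 0.27, adjusted p = 0.994 each by limma).

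These genes followed the markers of choroid plexus epithelium, the secretory lining of the ventricles. Over the 18 libraries, the mean of 16 such markers (Ttr, Folr1, Kl and others, none a collagen) correlated with Col8a1 at r = 0.98 (rho = 0.99), Col9a3 at r = 0.97 (rho = 0.96), Col8a2 at r = 0.95 (rho = 0.96), Col4a3 at r = 0.95 (rho = 0.94), Col4a4 at r = 0.91 (rho = 0.98) and Col17a1 at r = 0.89 (rho = 0.90). For each of these the permutation p was 1e-05, the smallest that can be given, and 0.000498 after adjustment over 324 relations of 54 genes with 6 marker lists. Without the 2 libraries farthest from the median of the gene, r was 0.97, 0.97, 0.94, 0.94, 0.91 and 0.86, and with group means removed it was 0.98, 0.97, 0.93, 0.95, 0.90 and 0.88. Lama5 (r = 0.81, rho = 0.84, adjusted permutation p = 0.00205, 0.82 without the 2 farthest) and Col18a1 (r = 0.80, rho = 0.83, adjusted permutation p = 0.00216, 0.73 without the 2 farthest) were next. Another 4 genes had an adjusted permutation p under 0.05: Lamc3 (r = 0.67, rho = 0.55, p = 0.0264, 0.57 without the 2 farthest), Col14a1 (r = 0.66, rho = 0.69, p = 0.0287, 0.56 without the 2 farthest), Col4a5 (r = 0.64, rho = 0.57, p = 0.0358, 0.35 without the 2 farthest) and Lamb2 (r = 0.62, rho = 0.56, p = 0.0485, 0.50 without the 2 farthest). With group means removed their r was 0.53, 0.72, 0.83 and 0.53. Col4a1, in contrast, had r = 0.31 (rho = 0.25, adjusted permutation p = 0.405, 0.44 without the 2 farthest). The median r of the 54 genes with these markers was 0.14.

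All 16 choroid plexus markers were listed and none was at 0 in every library of a group. They summed to 1502 to 6626 CPM in WT_Basal and 254 to 1184 CPM in KO_Basal, to 3226 to 5016 CPM in WT_OL and 3744 to 7128 CPM in KO_OL, and to 240.2 to 13022 CPM in WT_RL and 2180.4 to 7879 CPM in KO_RL. Without Ttr, the transthyretin gene that makes up much of the sum, the ranges in WT_Basal and KO_Basal were 742 to 2622 CPM and 231 to 586 CPM. In KO_OL against KO_Basal 15 of the 16 markers rose by adjusted p, and in KO_RL against KO_Basal 12 did. The part of these markers in the changes of Col8a1, Col8a2, Col9a3, Col4a3, Col4a4, Col17a1, Lamc3 and Lamb2 was not tested.

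**Figure D4:**
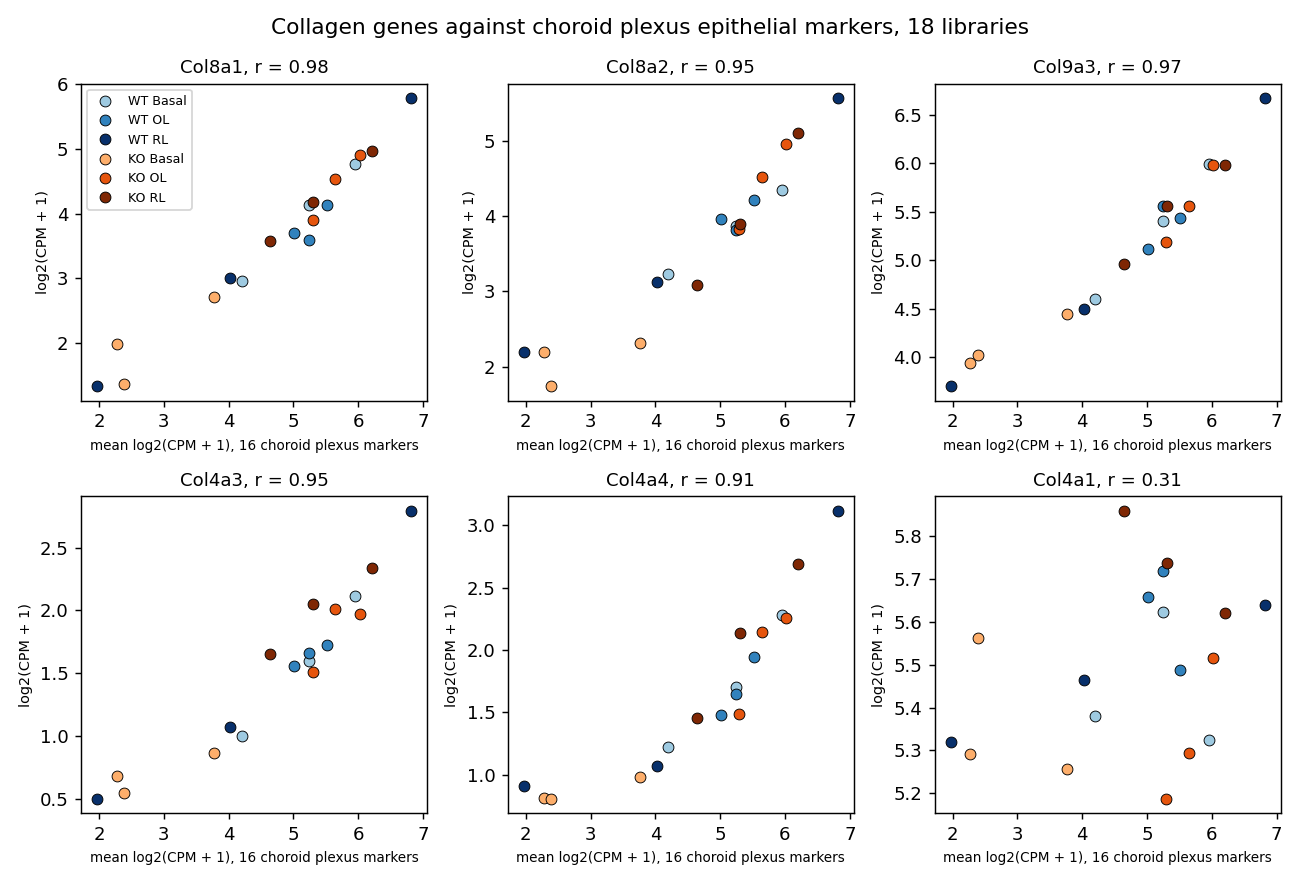
Log2(CPM + 1) of 6 collagen genes against the mean log2(CPM + 1) of 16 choroid plexus epithelial markers, 1 point per library, coloured by group. Col8a1, Col8a2, Col9a3, Col4a3 and Col4a4 lie along a line (r from 0.91 to 0.98) and Col4a1 does not (r = 0.31).

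The libraries of WT_RL show the same pattern inside 1 group. Col8a1 measured 1.51, 6.98 and 54.3 CPM in the 3 WT_RL mice, Col9a3 12, 21.5 and 101 CPM, and the choroid plexus marker mean 1.97, 4.03 and 6.82 on the log2 scale. Limma called none of the 54 genes in WT_RL against WT_Basal (15.7% of all genes were), and 6 had an unadjusted p under 0.05, where 30.3% of all genes did. Without WT_RL mouse 3 the count was 5, all lower (Col8a1, Lama5, Col9a3, Col27a1 and Col4a5). It was 1 without WT_Basal mouse 3 and 1 without WT_RL mouse 1. Col19a1 (log2 fold change -0.52) and Col23a1, a transmembrane collagen (-0.27), were the largest differences without overlap.

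After original learning many matrix genes had lower values in KO than in WT mice, but none passed the adjusted test. In KO_OL against WT_OL limma called none of the 54 (0.0652% of all genes), but 23 had an unadjusted p under 0.05, where 18% of all genes did. Of the 23, 20 were lower in KO_OL (8.07% of all genes were) and 3 were higher (9.96% of all genes were). The median log2 fold change of the 54 genes was -0.29, against 0.00095 for all genes.

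The lower genes with an unadjusted p under 0.05 came from several classes, but none was a short-chain collagen, a transmembrane collagen or a multiplexin. Of 11 fibrillar collagens, 7 had an unadjusted p under 0.05 and 10 were below 0, with a median of -0.49. Col5a1 measured 16.8, 23.9 and 11.3 CPM in WT_OL and 5.61, 8.52 and 9.14 CPM in KO_OL (log2 fold change -1.03 ± 0.27, adjusted p = 0.143 by limma). Col1a2 measured 33.2, 30.6 and 42.7 CPM and 13.8, 15.1 and 24.4 CPM (log2 fold change -0.99 ± 0.32, adjusted p = 0.178 by limma). Every KO_OL mouse was below every WT_OL mouse in both.

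Col9a2 (log2 fold change -0.78), Col4a6 (-0.72), Col16a1 (-0.53) and Lama4, the alpha chain of vascular laminin-411 (-0.50), also showed no overlap between the groups. The genes that were higher in KO_OL were Col6a5 (log2 fold change 0.66), Lamb1 (0.57) and Col25a1 (0.67). In each of them WT_OL mouse 2 was the lowest of all WT_OL mice. The adjusted p of Col6a5 was 0.222, and 0.697 without WT_OL mouse 2, by limma. Without that mouse the log2 fold change was 0.26 for Lamb1 (unadjusted p = 0.134 by limma) and 0.21 for Col25a1 (unadjusted p = 0.251 by limma), and that of Col5a1 was -0.78. Without WT_OL mouse 3, 11 genes passed the adjusted test, 9 lower and 2 higher, Col5a1, Col9a2 and Col16a1 among them.

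Markers of fibroblasts and of the vessel wall were lower in the same mice. Fibroblast markers summed to 405 to 454 CPM in WT_OL and 270.1 to 310.5 CPM in KO_OL, those of vascular smooth muscle (9 genes) to 137 to 166 CPM and 89.7 to 93.9 CPM, those of endothelial cells (12 genes) to 305 to 354 CPM and 234 to 264 CPM, and those of pericytes (8 genes) to 184 to 218 CPM and 145 to 161 CPM. In all 4 lists the groups did not overlap. Of the markers, 12 of 16, 8 of 9, 8 of 12 and 4 of 8 had an unadjusted p under 0.05, and 1, the fibroblast marker Gjb2, passed the adjusted test. None of the listed markers of these 4 cell types was at 0 in all libraries of a group. The part of these markers in the lower collagen and laminin values was not tested.

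Over the 18 libraries, Col9a2 (r = 0.87, rho = 0.86), Col1a2 (r = 0.79, rho = 0.77), Lama4 (r = 0.75, rho = 0.69) and Col16a1 (r = 0.74, rho = 0.81) were the genes most closely related to the mean of the fibroblast markers, with adjusted permutation p = 0.000864, 0.00432, 0.00432 and 0.00583. Without the 2 farthest libraries r was 0.84, 0.78, 0.68 and 0.70, and with group means removed 0.81, 0.77, 0.73 and 0.54. Col4a6 was closest to the smooth muscle markers (r = 0.81, rho = 0.78, adjusted permutation p = 0.00191, 0.72 without the 2 farthest). Lamb1 was closest to the markers of hippocampal neurons (r = 0.76, rho = 0.63, adjusted permutation p = 0.00607), but with r = 0.48 without the 2 farthest libraries.

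**Figure D5:**
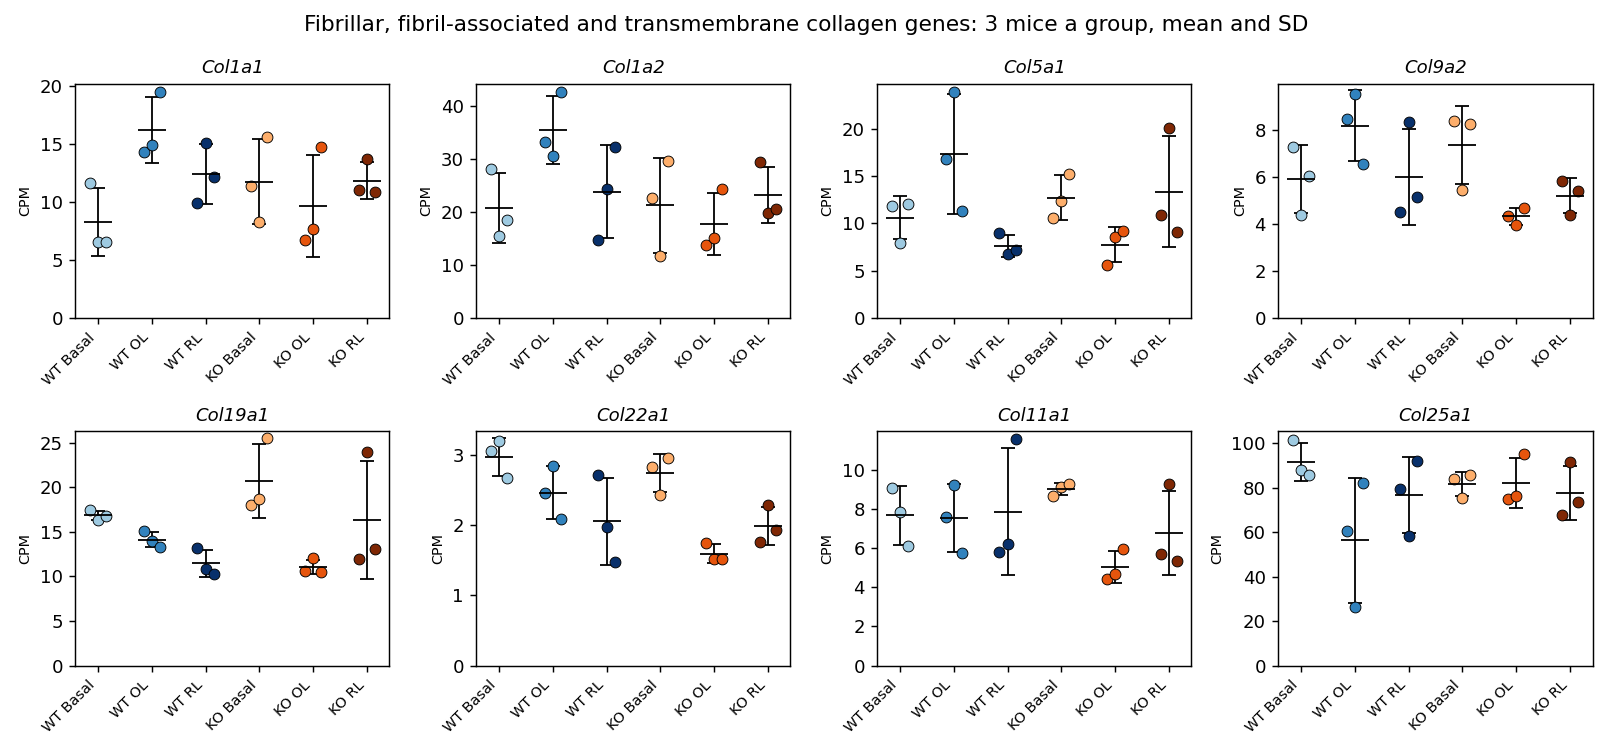
CPM of 8 fibrillar, fibril-associated and transmembrane collagen genes in each mouse (points) with the group mean and SD (3 mice a group). Col1a1, Col1a2, Col5a1 and Col9a2 have their highest mean in WT_OL, Col19a1 and Col22a1 are lower in every KO_OL mouse than in any KO_Basal mouse, and Col25a1 has 1 low WT_OL mouse.

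The difference between the genotypes in the change from Basal to OL was tested directly. Limma called none of the 54 genes, and none of all genes (0%); 18 of the 54 had an unadjusted p under 0.05, where 12.4% of all genes did. The median of the 54 genes was -0.25. Col24a1 (-1.32 ± 0.41 on the log2 scale), Col5a1 (-1.28 ± 0.39) and Col1a1 (-1.22 ± 0.38) were among the genes that were more negative in KO mice, each at an adjusted p of 0.388 by limma. Col8a1 (2.57 ± 1.09) and Col8a2 (2.18 ± 0.89) were the most positive. Without WT_OL mouse 2 the values were -0.99 for Col24a1, -1.03 for Col5a1 and -1.27 for Col1a1. Without WT_OL mouse 3, 6 genes passed. In the same test 14 of 16 fibroblast markers (median -0.79), 8 of 8 pericyte markers (-0.34), 11 of 12 endothelial markers (-0.34) and 8 of 9 smooth muscle markers (-0.13) were below 0, and 15 of 16 choroid plexus markers were above 0 (2.97), with none called. Their part in the differences of the matrix genes was not tested.

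From original to reversal learning the genotypes moved in opposite directions, as medians. These comparisons use the WT_OL and KO_OL mice again, so they are not independent of the lower values in KO_OL given above. In KO against WT mice, the median log2 fold change of the 54 genes was -0.0013 in Basal, -0.29 in OL and 0.10 in RL. In WT_RL against WT_OL, limma called none of the 54 genes (0.261% of all genes), the median log2 fold change was -0.26, and all 10 genes with an unadjusted p under 0.05 were lower (16.4% of all genes had such a p, 6.39% lower). In KO_RL against KO_OL none was called (0.0196% of all genes), the median was 0.16, and all 8 genes with an unadjusted p under 0.05 were higher (4.81% of all genes, 3.33% higher). For the difference between these changes none was called (0% of all genes), the median of the 54 genes was 0.37 against -0.0098 for all genes, and all 18 genes with an unadjusted p under 0.05 were more positive in KO mice (7.98% of all genes, 4.39% in that direction). In that test 14 of 16 fibroblast markers (median 0.75), 9 of 9 smooth muscle markers (0.46), 8 of 8 pericyte markers (0.41), 12 of 12 endothelial markers (0.24) and 16 of 16 choroid plexus markers (0.64) were above 0, with none called. In WT_RL against WT_OL the pericyte marker Rgs5 and the endothelial marker Slco1a4 fell by adjusted p, and the medians were -0.49 for fibroblasts, -0.19 for smooth muscle, -0.33 for pericytes, -0.22 for endothelium and -0.93 for choroid plexus. The part of these markers was not tested.

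Col5a1, whose exons overlap those of 2810430I11Rik and Gm13372 on the other strand, carried the lowest p of that difference. It measured 16.8, 23.9 and 11.3 CPM in WT_OL and 8.95, 6.79 and 7.15 CPM in WT_RL, but 5.61, 8.52 and 9.14 CPM in KO_OL and 10.9, 20.1 and 9.12 CPM in KO_RL, where mouse 2 was high (difference of the log2 changes 1.70 ± 0.39, adjusted p = 0.457 by limma). Col6a1, a chain of the beaded filaments around vessels and muscle, measured 25.7, 40.8 and 21.6 CPM in WT_OL and 20.2, 13.7 and 9.69 CPM in WT_RL, without overlap, and 22.9, 52.2 and 32.9 CPM in KO_RL (difference 1.48 ± 0.53, adjusted p = 0.581 by limma). Col6a2 followed it (0.95 ± 0.26). Without WT_OL mouse 2 the differences were 1.45 for Col5a1, 1.23 for Col6a1 and 0.86 for Col6a2. Without WT_OL mouse 3, 6 genes were called in WT_RL against WT_OL. In KO mice, Col4a2 measured 37.8, 38.2 and 47.4 CPM in KO_OL and 47.9, 66.3 and 54.8 CPM in KO_RL (log2 fold change 0.44) and Col7a1, the collagen of anchoring fibrils, differed by 0.48, both without overlap between the groups (adjusted p = 0.531 and 0.97 by limma). Col6a6, at few reads, measured 0.460, 0.587 and 0.337 CPM in KO_OL and 0.334, 0.305 and 0.272 CPM in KO_RL. Every KO_RL mouse was lower (log2 fold change -0.16, unadjusted p = 0.276 by limma). KO_OL mouse 3 and KO_RL mouse 1 were apart by less than the worth of 1 read.

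The remaining genotype comparisons gave less. In KO_RL against WT_RL limma called none of the 54 genes (0% of all genes), and 5 had an unadjusted p under 0.05, where 4.93% of all genes did. All 5 were higher in KO_RL, with Col6a1 in front (20.2, 13.7 and 9.69 CPM in WT_RL and 22.9, 52.2 and 32.9 CPM in KO_RL, log2 fold change 1.23 ± 0.37, adjusted p = 0.668 by limma). Averaged over the 3 training states, limma called none of the 54 genes (0.0326% of all genes), and 6 had an unadjusted p under 0.05, where 8.36% of all genes did. Col6a4 was higher in every KO_RL mouse than in any WT_RL mouse (log2 fold change 0.93, adjusted p = 0.986 by limma). In each of the 9 comparisons in which limma called none of the 54 genes, limma voom on the recovered reads called none as well.

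Other genes of matrix assembly were read from lists. Of 27 enzymes that fold, crosslink and process collagen, 4 rose in WT_OL against WT_Basal and none fell, where 9.5% of all genes were called. In KO_OL against KO_Basal 7 rose and 1 fell (23.5% of all genes), and 5 rose and none fell both in WT_RL against WT_Basal (15.7% of all genes) and in KO_RL against KO_Basal (23.6% of all genes). P4ha1, the prolyl hydroxylase subunit that stabilises the collagen helix, rose in all 4 of these, with log2 fold changes of 0.44 (OL) and 0.72 (RL) for WT mice and 0.97 (OL) and 0.72 (RL) for KO mice, and it was the 1 enzyme called between KO_OL and WT_OL (0.58, adjusted p = 0.0395 by limma). Among the enzymes called, Pcolce2, an enhancer of procollagen processing, had the largest rise in KO_OL (1.28) and the lysyl oxidase Loxl1 in KO_RL (0.89), and the lysyl hydroxylase Plod2 fell in KO_OL (-0.48).

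Of 17 other basement membrane components, none was called in WT_OL or WT_RL against WT_Basal, and 2, Tinagl1 and Fbln1, rose in KO_OL (0.53 and 0.43) and KO_RL (0.76 and 0.46) against KO_Basal. The shares of all genes called in these comparisons, given for the enzymes, hold for this list and the next ones too. Of 14 listed collagen and laminin receptors, none was called in WT_OL, and in WT_RL the integrin Itga7 rose (0.45) and Itga1 fell (-0.38). The integrin Itga3 rose in KO_OL (0.38) and dystroglycan Dag1 in KO_OL (0.34) and KO_RL (0.34), and the leukocyte collagen receptor Lair1 fell in both (-0.68 and -0.56). Of 17 listed matrix metalloproteinases and inhibitors, 1 was called after OL and 2 after RL in WT mice, and 4 and 2 in KO mice, each against Basal of its genotype. Mmp24, a neuronal membrane-type protease, rose after both kinds of learning in WT mice (0.29 and 0.34) and in KO mice (0.29 and 0.27). The inhibitor Timp4 rose in WT_RL (0.54), Mmp17 in KO_OL (0.47) and KO_RL (0.44) and Mmp15 in KO_OL (0.76), where Mmp16 fell (-0.39).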

How the data were processed

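Hippocampal poly(A) RNA of 18 mice was sequenced as paired-end reads. The authors aligned the reads to mm10 (STAR 2.5.1), counted them per gene with STAR, scaled them by TMM (edgeR 3.12.1) and worked in R 3.3.0, by the submitters' processing notes and the methods. They deposited log2 values of CPM for 15329 genes. The methods describe CPM floored at 1, but the values are log2(CPM + 1): 100% of the CPM so obtained were whole multiples of the worth of 1 read (tolerance 0.02), which gave the reads. The floored scale was an alternative, as were an added 0.1 CPM, a filter at 1 CPM in 3 libraries, limma voom on the recovered reads, a fit of the compared libraries alone and leaving out each library.

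limma 3.58.1 (R 4.3.3; 1 mean per group over 18 libraries, variance trend, two-sided, 12 residual degrees of freedom) tested 12 comparisons, with Benjamini-Hochberg adjustment over genes with a value above 0 in at least 3 libraries, which all had. On simulated data it called planted changes, and no gene in a comparison where none was planted. Nothing in the sources used here says whether the mice of a group shared a litter or extraction. Exact permutation of 3 mice against 3 cannot go below p = 0.1, so a lack of overlap between 2 groups carries little weight alone. The share of all genes without overlap is not given here. Correlations used 100000 permutations of all 18 libraries, not kept within groups, so their p values include differences between the groups. Python 3.11.15, numpy 2.4.6, pandas 2.3.3, scipy 1.17.1 and matplotlib 3.10.9 were used. Precision is set by 3 mice a group rather than by counting error.

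The genes named were those with an adjusted p under 0.05, those past 1.5-fold with an unadjusted p under 0.05 in WT_OL and KO_Basal against WT_Basal, the 2 largest non-overlapping differences each way per comparison of 2 groups, the highest gene per class, and both chains of each pair; a few others were named after their values were seen. The values of 1 gene of the 54 are not reported here, though the counts include it. The members and lists were chosen with earlier results of these data known. Of the 54 genes, 12 have exons that overlap a gene of the other strand and 3 one of the same strand, so reads may be split or shared. No value of 3 mice a group could be screened for outliers.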

Additional observations from a re-analysis of the deposited data

How the results depend on the processing

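Of the 83 counts of collagen and laminin genes recomputed under other settings, leaving out single libraries aside, 75 stayed within 1.5 times the reported count. Fitting only the compared libraries gave 0 calls in WT_OL against WT_Basal, 19 in KO_OL against KO_Basal, 1 in WT_RL against WT_Basal, and 7 genes past 1.5-fold in KO_Basal against WT_Basal. Raising values under 1 CPM to a floor gave 1 call in WT_RL against WT_Basal, 5 in KO_RL against KO_Basal and 2 genes past 1.5-fold in KO_Basal against WT_Basal, where limma voom gave 2 as well. With group means removed, r was 0.45 for Col5a1 and Col5a2 and turned to 0.16 for Col9a2 and Col9a3. Without the 2 farthest libraries, r was 0.46 for Lamb2 and Lamc1. The cause was not tested. Of 286 values of named genes under these settings, 16 lost the adjusted threshold, 1 passed it, and none changed direction. Of 288 such values with 1 library left out, 76 lost the adjusted threshold, 5 passed it, and none changed direction.

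Leaving out 1 library at a time gave 0 to 5 calls in WT_OL against WT_Basal, 5 to 9 in KO_OL against KO_Basal, 2 to 9 in KO_RL against KO_Basal, 0 to 6 in WT_RL against WT_OL, 0 to 5 in WT_RL against WT_Basal, 0 to 11 in KO_OL against WT_OL and 0 to 6 for the genotype difference in the change to OL. The 1.5-fold counts ran from 3 to 6 in WT_OL and from 1 to 6 in KO_Basal, each against WT_Basal. The other comparisons stayed at 0. A group left with 2 mice takes its spread from the pooled fit.

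Mice of different groups share replicate numbers only as labels: the correlation of their deviations ran from -0.60 to 0.51, and in 0 of 15 pairs of groups were all 3 numbers over 0.1. With the replicate number as a block, the calls were 4 in WT_OL, 13 in KO_OL and 8 in KO_RL, each against Basal of its genotype, and 0 in the other comparisons. The 1.5-fold counts with the block were 5 and 5.

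With 3 mice a group, differences within the spread between mice were not detectable, and the 5 genes under 1 CPM rest on few reads.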
